A study of Mus musculus with 8 samples.

Results

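The 78 genes described here encode the mitochondrial ribosomal proteins, the protein part of the ribosome that works inside mitochondria. Membership was set by symbol alone, as every gene whose name begins with Mrpl or Mrps followed by a digit. This gave 78 of the 17276 genes in the files. The list itself was chosen with earlier results of these data known. All 78 had enough counts to be tested, among 11747 tested genes. The cells were hepatocytes of wild-type (WT) male C57BL/6N mice aged 6 to 8 weeks. RNA was measured in 4 libraries of cells kept static and 4 libraries of cells exposed to shear stress, the drag of a moving fluid on a cell surface. Both groups share genotype, strain, sex and age range, and no other agent is named for either. The labels do not state how strong and how long the exposure was, or whether each library was made from its own culture or animal. The p-values therefore measure the spread between these samples only, and that spread may be technical.

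The mitochondrial ribosome, or mitoribosome, translates the few messenger RNAs of the mitochondrial genome, which encode core subunits of the respiratory chain and of ATP synthase. Its RNAs are transcribed from mitochondrial DNA, whereas all of its proteins are encoded in the nucleus, made in the cytosol and imported. The small subunit (mostly Mrps genes) reads the messenger RNA, and the large subunit (mostly Mrpl genes) joins the amino acids and feeds the growing chain through an exit tunnel at the inner membrane. Many of the proteins have a counterpart in bacterial ribosomes, and the others were added during the evolution of mitochondria. In hepatocytes, which are rich in mitochondria, this machinery is expressed throughout. Of the 78 genes, 51 belong to the large subunit (30 with a bacterial counterpart and 21 without), 26 to the small subunit (16 with and 10 without), and 1, Mrps36, carries the name but is now known as a subunit of the oxoglutarate dehydrogenase complex.

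Under shear stress 20 of the 78 genes rose, 8 fell and 50 did not pass the test, at an adjusted p below 0.05 in the quasi-likelihood test of edgeR. The same test called 24.9% of all tested genes higher and 23.7% lower, 48.6% in either direction, against 35.9% of the mitoribosomal genes. The changes were small. On the log2 scale, fold changes (shear stress over static libraries, scaled by the trimmed mean of M values, TMM) ran from -0.63 to 1.27 with a median of 0.16, beside -0.01 over all tested genes. The median size of the change, regardless of sign, was 0.22 among these genes and 0.45 among all tested genes. A called change of at least 2-fold was found in 3 of the 78 (3.85%), against 17.3% of all tested genes, and 65 of the 78 (83.3%) lay within 0.5 of 0 on the log2 scale, against 54.7%. The 4 shear stress libraries all lay above the 4 static libraries for 22 genes and all below for 9, which is 31 of 78, while groups did not overlap for 23.7% (above), 21.5% (below) and 45.3% (either) of all tested genes.

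**Figure D1:**
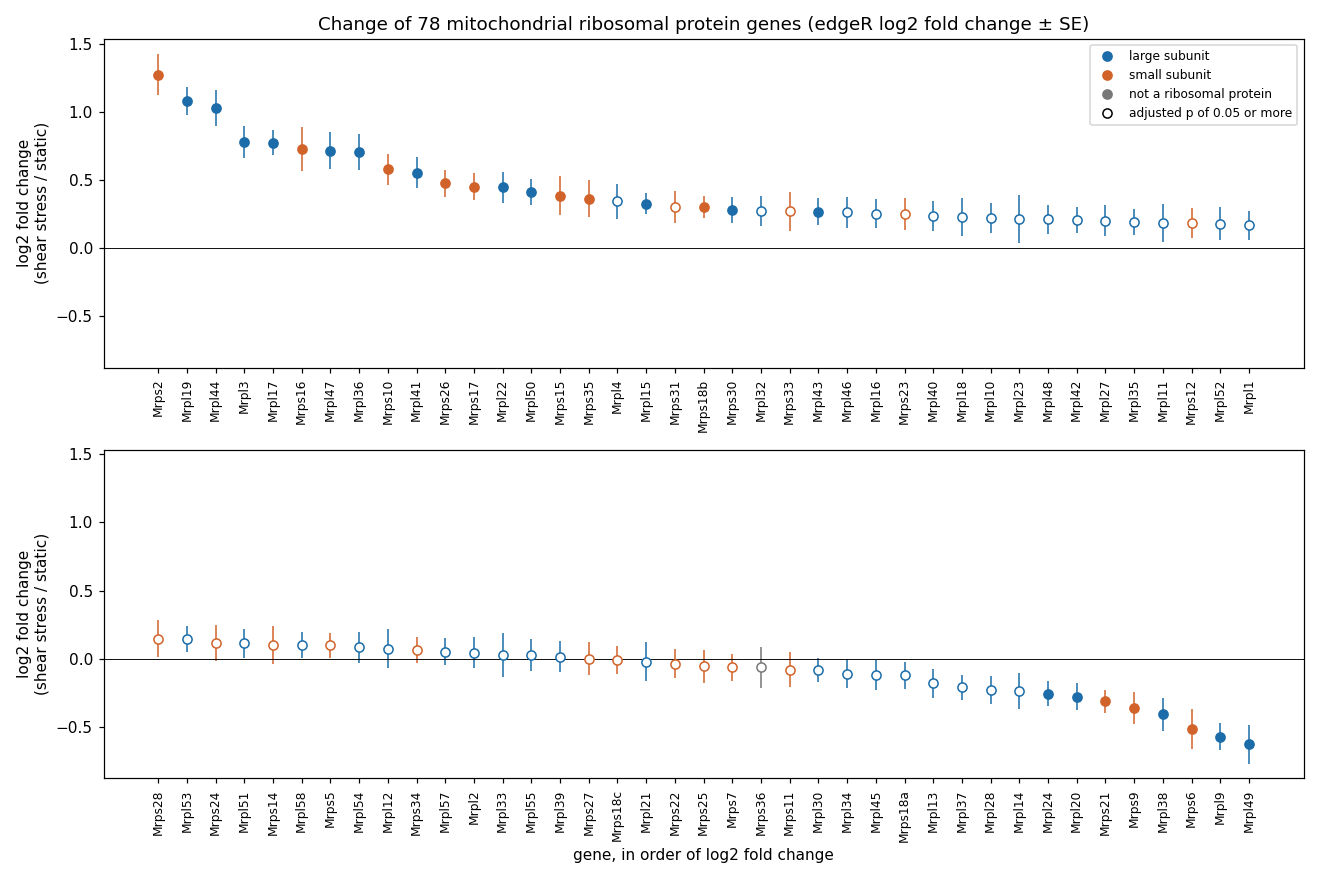
Log2 fold change (shear stress over static, y axis) of each of the 78 genes, in order of size over 2 panels; bars are standard errors, colours give the subunit, and filled points passed the test at an adjusted p below 0.05. The 20 filled points above 0 begin with Mrps2 at 1.27, and the 8 below 0 end with Mrpl49 at -0.63.

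The direction of the small changes depended on how the libraries were scaled. With library totals in place of TMM factors the median over all tested genes moved from -0.01 to 0.22, and that of the mitoribosomal genes from 0.16 to 0.38, so the gap between the 2 medians was 0.16 with TMM and 0.17 with totals. Called members then numbered 43 higher and 1 lower, beside 35.4% higher and 13.1% lower among all tested genes. With upper quartile factors they were 33 higher and 3 lower, beside 31.1% and 16.9%. The share of the calls that were higher was thus 71.4% of the members' calls with TMM, 97.7% with totals and 91.7% with upper quartile factors, against 51.2%, 73.0% and 64.8% of all calls. Of the TMM calls, 16 rises and 1 fall (Mrpl9) were made in all of 19 settings, which comprise TMM and 18 alternatives of scaling, filtering, test, pairing and left-out libraries. Fits without both libraries of a replicate number are not among the 19.

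Promoter windows give the sequence around listed starts of the genes, which need not be the outermost start of a gene. The RefSeq table of build GRCm38.p6 held windows for 69 of the 78 genes (75 windows of 300 bases, from 250 before to 50 after a listed start). Both strands were searched for 4 motifs of factors known for driving mitochondrial genes or cell growth: GCGCA followed by any base and GCGC, bound by NRF1, CCGGAAG, the core bound by ETS factors such as GABP, AAGATGGC, bound by YY1, and the E-box CACGTG. The ETS core was in 34.7% of the members' windows, against 17.7% of the 12108 windows of tested genes and 8.86% of all 32851 windows. The corresponding shares were 17.3%, 10.04% and 4.60% for the NRF1 motif, 16.0%, 4.51% and 2.75% for the YY1 motif, and 9.33%, 9.84% and 7.15% for the E-box. The NRF1 motif was found for 13 of the 69 genes. The window of Mrps2, the gene with the largest rise, held 0 matches and is not printed. It is chr2:28467816-28468115, inside the gene span, which begins at 28465951, so the bases at the beginning of that span were not searched. The listed start of Mrpl9 also lies inside its gene span, which begins at 94443154, but its window includes that position. The 4 windows below were chosen after the values were seen, from 2 genes that rose and 2 that fell. They all hold a match, so they do not represent the 69 genes. They are written 5′ to 3′ on the strand of the gene, with matches in capitals.
Mrpl17 (rose; chr7:105811038-105811337, minus strand): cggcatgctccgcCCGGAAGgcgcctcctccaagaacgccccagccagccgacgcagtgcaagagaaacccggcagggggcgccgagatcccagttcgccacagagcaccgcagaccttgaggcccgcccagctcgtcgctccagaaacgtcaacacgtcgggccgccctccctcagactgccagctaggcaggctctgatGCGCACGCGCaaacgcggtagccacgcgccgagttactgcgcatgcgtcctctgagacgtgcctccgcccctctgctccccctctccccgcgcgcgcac
Mrpl44 (rose; chr1:79775768-79776067, plus strand): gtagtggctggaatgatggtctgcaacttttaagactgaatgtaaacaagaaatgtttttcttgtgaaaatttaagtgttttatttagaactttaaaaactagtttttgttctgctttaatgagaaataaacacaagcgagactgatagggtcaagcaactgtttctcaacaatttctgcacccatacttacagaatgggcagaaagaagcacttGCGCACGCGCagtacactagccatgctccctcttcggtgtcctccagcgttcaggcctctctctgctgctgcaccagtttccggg
Mrpl9 (fell; chr3:94443086-94443385, plus strand): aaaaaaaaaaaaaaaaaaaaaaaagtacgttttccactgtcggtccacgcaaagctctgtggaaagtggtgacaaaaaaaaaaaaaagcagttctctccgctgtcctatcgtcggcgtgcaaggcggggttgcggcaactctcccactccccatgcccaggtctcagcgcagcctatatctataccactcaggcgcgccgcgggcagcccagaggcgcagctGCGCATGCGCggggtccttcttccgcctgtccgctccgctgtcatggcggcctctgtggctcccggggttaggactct
Mrpl49 (fell; chr19:6057706-6058005, minus strand): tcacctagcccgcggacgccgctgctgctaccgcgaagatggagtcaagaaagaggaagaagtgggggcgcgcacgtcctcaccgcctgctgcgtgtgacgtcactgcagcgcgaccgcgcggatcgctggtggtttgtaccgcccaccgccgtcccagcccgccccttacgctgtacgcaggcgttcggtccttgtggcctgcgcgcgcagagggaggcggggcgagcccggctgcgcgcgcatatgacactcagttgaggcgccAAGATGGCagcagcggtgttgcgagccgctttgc
The NRF1 motif begins at -49 in Mrpl17, at -35 in Mrpl44 and at -28 in Mrpl9, counted from the listed start. The window of Mrpl17 also holds the ETS core, at -237, and that of Mrpl49 holds the YY1 motif, at 17 on the transcribed side. Among the genes with a window, the NRF1 motif was found for 3 of 17 that rose, 3 of 7 that fell and 7 of 45 that were not called. The ETS core was found for 7, 1 and 18 of the same groups the YY1 motif for 1, 1 and 10, and the E-box for 1, 1 and 3. The median log2 fold change was 0.02 for the genes with an NRF1 match, 0.18 with an ETS match, 0.06 with a YY1 match and -0.01 with an E-box. A match describes these letters only and is not a bound site.

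Among the regulators that act on such motifs, Yy1, a zinc-finger transcription factor, fell from 168 ± 20.4 to 79.6 ± 4.92 normalised CPM (counts relative to the TMM-adjusted library size; mean ± SD, n = 4 here and below), a log2 fold change of -1.08 ± 0.11 (SE; edgeR adjusted p = 9.82e-05). Ppargc1a, the coactivator PGC-1alpha, fell from 3.06 ± 1.64 to 0.846 ± 0.197 CPM (-1.84 ± 0.41; edgeR adjusted p = 0.00479). Its relative Pprc1 rose by a smaller amount, from 77.8 ± 2.75 to 98.0 ± 7.65 CPM (0.33 ± 0.09; edgeR adjusted p = 0.0102). Nrf1 itself (-0.22 ± 0.15; edgeR adjusted p = 0.253) and Gabpa (-0.07 ± 0.12; edgeR adjusted p = 0.671) did not pass. Of the 8 regulators tested, 1 rose and 2 fell (37.5% called, beside 48.6% of all tested genes). Whether any of these bears on the mitoribosomal genes was not tested.

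The largest rise was that of Mrps2 (chromosome 2, 28465951 to 28471177), a small-subunit protein with a bacterial counterpart. The static libraries 1 to 4 gave 26.4, 26.6, 17.7 and 30.1 CPM and the shear stress libraries 55.6, 60.9, 63.7 and 63.6 CPM. Every shear stress library lay well above every static one, and the fold change was 2.42 (log2 1.27 ± 0.15 SE; edgeR adjusted p = 0.00023). Mrpl19 (chromosome 6, 81957826 to 81965949) encodes a large-subunit protein at the interface with the small subunit. It gave 24.5, 27.0, 22.1 and 24.8 CPM in the static and 55.2, 54.5, 46.6 and 51.7 CPM in the shear stress libraries. The groups were tight and far apart, with a fold change of 2.11 (log2 1.08 ± 0.10; edgeR adjusted p = 8.55e-05). Mrpl44 (chromosome 1, 79776018 to 79781445) encodes a large-subunit protein absent from bacterial ribosomes, with the fold of an RNase III enzyme. Its values were 11.5, 12.2, 10.5 and 15.1 CPM in static and 25.6, 26.5, 22.4 and 26.1 CPM in shear stress libraries. The groups again did not overlap, and the fold change was 2.04 (log2 1.03 ± 0.13; edgeR adjusted p = 0.000329).

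The next rises were of proteins with bacterial counterparts. Mrpl3, which reaches towards the catalytic centre of the large subunit, gave 18.1, 16.5, 13.3 and 17.5 CPM in static and 28.1, 28.0, 27.1 and 28.9 CPM in shear stress libraries (fold change 1.71; log2 0.78 ± 0.12; edgeR adjusted p = 0.0007). The 4 shear stress values lay close together, above all static values. Mrpl17, whose promoter is printed above, gave 53.2, 48.2, 59.5 and 57.8 CPM in static and 95.0, 93.8, 87.7 and 97.4 CPM in shear stress libraries (fold change 1.71; log2 0.77 ± 0.09; edgeR adjusted p = 0.000238). It was the most highly counted of the 8 largest risers, again with no overlap. Mrps16, a small-subunit protein known from a fatal human mitochondrial disease, gave 12.3, 9.37, 13.3 and 16.4 CPM in static and 21.9, 21.4, 19.6 and 22.2 CPM in shear stress libraries (fold change 1.66; log2 0.73 ± 0.16; edgeR adjusted p = 0.00502). Its highest static library, replicate 4, stayed below the lowest shear stress library. Mrpl47, which sits at the mouth of the exit tunnel, went from 8.52 ± 0.534 to 14.0 ± 1.75 CPM (log2 0.71 ± 0.13; edgeR adjusted p = 0.00219). Mrpl36, a small zinc-binding protein of the large subunit, went from 17.9 ± 2.58 to 29.2 ± 2.57 CPM (log2 0.70 ± 0.13; edgeR adjusted p = 0.00185). These 8 genes rose in all 19 settings.

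The other 12 rises had log2 fold changes from 0.27 (Mrpl43) to 0.58 (Mrps10). Mrps10, Mrpl41, Mrps26, Mrps17, Mrpl22, Mrpl50, Mrpl15 and Mrps18b were called in all 19 settings, whereas Mrps15, Mrps35 and Mrps30 were called in 12 and Mrpl43 in 11. The 19 settings do not include fits without both libraries of a replicate number. Mrpl22 and Mrps18b lost their calls without both libraries numbered 1, and also without both numbered 4. Mrps15 and Mrpl43 were the called genes whose groups overlapped. Without shear stress replicate 4, for example, the call on Mrps30 was lost (log2 0.29, edgeR adjusted p = 0.0721). Mrps31, Mrpl32, Mrpl16 and Mrpl40 had every shear stress library above every static one and yet did not pass, and Mrpl37 had every one below without passing.

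**Figure D2:**
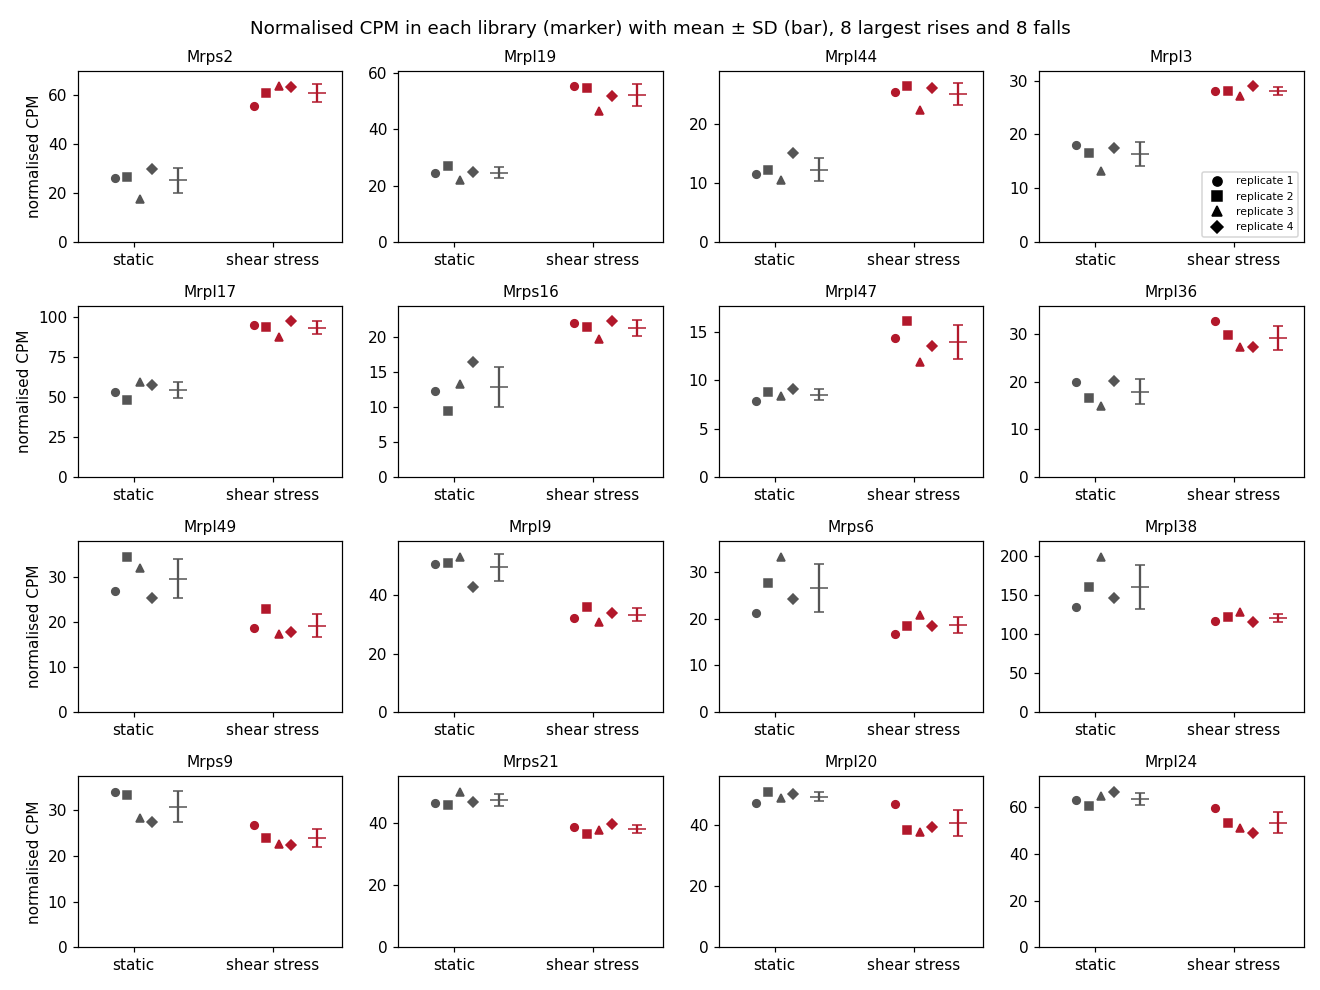
Normalised CPM (y axis, from 0) in each static (grey) and shear stress (red) library for the 8 largest rises and the 8 falls; marker shapes give the replicate number and the bars mean ± SD of 4 libraries. In all 16 panels the groups do not overlap, and Mrps2 shows the widest gap in fold, 2.42.

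Among the 8 falls the largest was that of Mrpl49 (chromosome 19, 6053630 to 6057755), a large-subunit protein without a bacterial counterpart. Static libraries 1 to 4 gave 26.8, 34.5, 31.9 and 25.3 CPM and shear stress libraries 18.6, 22.9, 17.3 and 17.7 CPM. The groups were separate, and the level fell 1.55-fold (log2 -0.63 ± 0.14; edgeR adjusted p = 0.00504). With library totals it was -0.40 and did not pass (edgeR adjusted p = 0.0588). Mrpl9 (chromosome 3, 94443154 to 94448708), a large-subunit protein whose bacterial counterpart lies at the base of a mobile stalk, gave 50.5, 51.0, 53.1 and 42.8 CPM in static and 32.2, 35.9, 30.8 and 34.0 CPM in shear stress libraries. It fell 1.49-fold (log2 -0.57 ± 0.10; edgeR adjusted p = 0.00158) and, with totals, by 0.34 on the log2 scale (edgeR adjusted p = 0.0312), which made it the fall called in every setting. Mrps6 (chromosome 16, 92058336 to 92112227), a small-subunit protein, gave 21.3, 27.6, 33.3 and 24.3 CPM in static and 16.7, 18.4, 20.8 and 18.5 CPM in shear stress libraries. The lowest static value was only just above the highest shear stress value. The log2 fold change was -0.52 ± 0.15 (edgeR adjusted p = 0.0168) and lost its call without shear stress replicate 1 (-0.44, edgeR adjusted p = 0.0531) and with totals (-0.29, edgeR adjusted p = 0.126).

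Mrpl38, of the central protuberance of the large subunit, was the most highly counted of the 78 genes in static libraries. It gave 136, 160, 200 and 146 CPM there, and 117, 123, 128 and 116 CPM in shear stress libraries (log2 -0.41 ± 0.12; edgeR adjusted p = 0.0205). The static values were spread, with replicate 3 highest, and all stayed above the shear stress values. The remaining falls were smaller. They were Mrps9 (-0.36 ± 0.11; edgeR adjusted p = 0.0258), a protein of the head of the small subunit, Mrps21 (-0.31 ± 0.08; 0.0121), Mrpl20 (-0.28 ± 0.10; 0.0391) and the exit tunnel protein Mrpl24 (-0.26 ± 0.09; 0.0415). With totals none of these 5 passed, and the log2 fold change of Mrpl24 was then -0.03. Leaving out 1 library also ended the calls on Mrpl38 (without shear stress replicate 1, edgeR adjusted p = 0.0586, or 4, 0.0579), Mrps9 (5 of 8 such fits, for example 0.0783 without shear stress replicate 4), Mrpl20 (7 of 8, up to 0.104) and Mrpl24 (6 of 8, up to 0.131).

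By place in the ribosome, 12 of 51 large-subunit genes rose and 5 fell (33.3% called, median log2 fold change 0.18). Of 26 small-subunit genes, 8 rose and 3 fell (42.3% called, median 0.13). Of 46 genes with a bacterial counterpart, 12 rose and 6 fell (39.1% called, median 0.16). Of 31 without, 8 rose and 2 fell (32.3% called, median 0.18). All these shares were below the 48.6% called among all tested genes (24.9% higher and 23.7% lower). None of the 5 genes of the stalk that receives translation factors was called, beside the 48.6% of all tested genes. Its members Mrpl10 (0.22 ± 0.11; edgeR adjusted p = 0.129), Mrpl11 (0.19 ± 0.14; 0.300) and Mrpl12 (0.07 ± 0.14; 0.702) had values above 0. Mrpl10 passed with library totals (0.0172) and with the replicate number as a block (0.0495). Mrpl53, also of the stalk, passed with library totals too (edgeR adjusted p = 0.0215). With upper quartile factors both Mrpl10 and Mrpl53 passed. Around the exit tunnel 2 of 5 genes rose, Mrpl22 and Mrpl47, and 1 fell, Mrpl24 (60.0% called, beside 48.6% of all tested genes). Mrpl23 (0.21 ± 0.18; edgeR adjusted p = 0.348) and Mrpl45 (-0.12 ± 0.11; 0.398), which anchors the ribosome to the inner membrane, did not pass. Of 7 genes of the central protuberance 1, Mrpl38, fell and 0 rose (14.3% called). With library totals 5 rose and 0 fell, and with upper quartile factors 3 and 0. All tested genes were also called higher more often there, 35.4% against 13.1% lower with totals and 31.1% against 16.9% with upper quartile factors. Mrpl58 there, a peptidyl-tRNA hydrolase that rescues stalled ribosomes, had 34.9 ± 1.71 and 37.4 ± 2.72 CPM (0.10 ± 0.09; edgeR adjusted p = 0.405).

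In the small subunit, the decoding protein Mrps12 (0.18 ± 0.11; edgeR adjusted p = 0.190), the messenger entry protein Mrps24 (0.12 ± 0.13; 0.493) and the head protein Mrps7 (-0.06 ± 0.10; 0.627) did not pass. The Mrps18 genes are paralogs whose proteins sit at different places. Mrps18b, of the small subunit, gave 115, 119, 118 and 110 CPM in static and 152, 145, 132 and 140 CPM in shear stress libraries (log2 0.30 ± 0.08; edgeR adjusted p = 0.0124). Its groups were far apart for so small a change. Mrps18a, placed in the large subunit by structures of the ribosome, was at 58.3 ± 1.81 and 53.6 ± 5.98 CPM (-0.12 ± 0.10; edgeR adjusted p = 0.336), and Mrps18c, which has the bacterial counterpart, at 26.1 ± 1.64 and 25.9 ± 2.28 CPM (-0.01 ± 0.10; 0.937). Mrps30, also a large-subunit protein despite its name, gave 43.1, 47.6, 53.7 and 48.5 CPM in static and 55.3, 59.1, 61.3 and 58.0 CPM in shear stress libraries (0.28 ± 0.09; edgeR adjusted p = 0.0331). Mrps36 was at 11.0 ± 1.12 and 10.5 ± 1.51 CPM (-0.06 ± 0.15; edgeR adjusted p = 0.740). RefSeq names 6 pseudogenes after Mrpl23, Mrpl27, Mrpl48 and Mrps36, so the reads of these 4 genes may be shared with them.

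Levels can be compared between genes only per transcript length, for which the deposited FPKM values were used. They are not TMM-scaled. Although mitoribosomal proteins are mostly present once per ribosome, their messenger RNAs spanned a wide range. Mrpl52 was highest in both groups, at 373 ± 24.7 FPKM in static and 478 ± 64.3 in shear stress libraries, followed by Mrpl33 (213 ± 46.5 and 245 ± 39.5) and Mrps21 (211 ± 3.79 and 195 ± 4.21). Mrpl33 and Mrps21 did not differ beyond their spread in static libraries. At the lower end were Mrps25 (4.03 ± 0.486 and 4.51 ± 0.712), Mrpl19 (4.82 ± 0.585 and 11.9 ± 1.19) and Mrps14 (8.37 ± 0.920 and 10.5 ± 1.62). FPKM depends on the transcript models the authors used, and a gene with a long model gets a low value and one with a short model a high value. In the GENCODE models, the longest coding transcripts of Mrpl52, Mrpl33 and Mrps21 have 463, 478 and 488 bases, the shortest among the 78 genes. Their mean static levels were 54.7, 42.5 and 47.1 CPM, beside 161 CPM for Mrpl38. The rank of Mrps2 among the 78 went from 67 to 42 and that of Mrps16 from 39 to 23, while Mrpl9 went from 32 to 56 and Mrpl49 from 57 to 72.

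**Figure D3:**
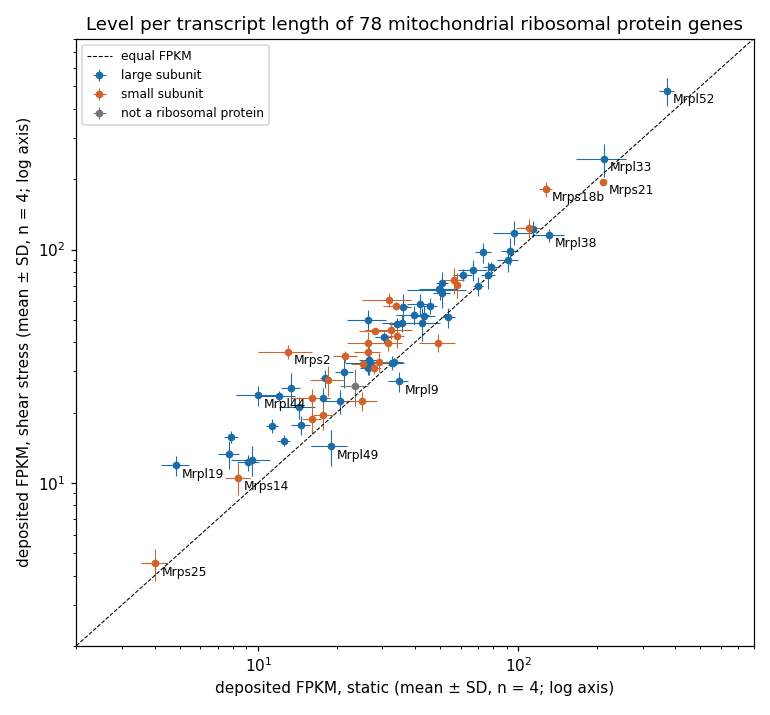
Deposited FPKM of the 78 genes in static (x axis) and shear stress (y axis) libraries, both on log axes; points are means, bars SD of 4 libraries, colours give the subunit and the dashed line marks equal FPKM. Mrpl52 is highest on both axes (373 and 478), and Mrpl19 (4.82 and 11.9) and Mrps2 (13.0 and 36.5) stand farthest above the line, part of which reflects that FPKM is not TMM-scaled.

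The spread of the 78 genes around each other was a little narrower under shear stress. The SD of log2 FPKM across the 78 genes, which no scaling of a library changes, was 1.23 to 1.30 in the static libraries and 1.11 to 1.15 under shear stress, without overlap. Across the 78 genes the log2 fold change was weakly related to the log2 of mean FPKM (Pearson r = -0.287, Spearman rho = -0.285) and to the log2 of transcript length (r = 0.324, rho = 0.295), given as a description over 78 genes that share the same 8 libraries. Transcript length here was that of the longest coding transcript in the GENCODE gene models. It need not be the length behind the deposited FPKM, which is itself divided by a transcript length, so the relations may be linked. Together the 78 genes made up 0.246% ± 0.00735 of a static library and 0.314% ± 0.0226 of a shear stress library. After TMM scaling their summed level was 2658 ± 56.2 and 2905 ± 131 CPM, with every shear stress library (2729 to 3028) above every static one (2599 to 2714).

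The size of the difference varied between replicate numbers. Libraries with the same number deviated together from their group means, so the numbers pair the libraries, but the calls above come from a fit without this pairing. Within numbers 1, 2, 3 and 4, the median log2 difference over the 78 genes was 0.18, 0.25, 0.05 and 0.06, and 62, 58, 42 and 52 genes were higher under shear stress. The number 3 pair had the lowest count of genes above 0. With the number as a block, 26 genes rose and 8 fell, beside 30.1% and 31.0% of all tested genes. The 28 genes called without the block were all among them, and Mrpl4, Mrpl10, Mrpl32, Mrpl40, Mrps31 and Mrps33 were added.

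Markers of cell types moved between the groups as well. All 8 hepatocyte markers listed were tested, and 6 of the 8 fell, with a summed level of 73963 to 94906 CPM in static and 49752 to 66702 CPM in shear stress libraries. With library totals 2 of the 8 fell, and with upper quartile factors 3. Of all tested genes 23.7% were called lower with TMM, 13.1% with totals and 16.9% with upper quartile factors. The share held by the 20 most abundant genes was 21.5% ± 1.08 in static and 18.8% ± 0.839 in shear stress libraries. Of the endothelial markers 5 of 6 were tested and 1, Pecam1, fell (log2 fold change -2.42). The other 4 lay above 0 and were not called (median of the 5 tested 0.38). The endothelial sums overlapped, at 9.36 to 22.2 CPM in static and 4.53 to 19.0 CPM in shear stress libraries. The only lymphocyte marker tested, Cd79a, also fell (sums 2.28 to 2.71 and 0 to 0.417 CPM). Of 6 macrophage, stellate or fibroblast, and cholangiocyte markers tested, 0 were called without the replicate block, and the sums overlapped between groups: 22.2 to 56.1 and 16.6 to 56.8 CPM, 5.52 to 11.8 and 6.31 to 9.24 CPM, and 131 to 1318 and 215 to 1704 CPM. With the block the stellate or fibroblast marker Dcn was lower (edgeR adjusted p = 0.022), and the cholangiocyte markers Epcam (0.0499) and Spp1 (0.0467) were higher. The cholangiocyte sums of numbers 1 to 4 were 1318, 131, 622 and 523 CPM in static and 1704, 215, 638 and 780 CPM in shear stress libraries, higher under shear stress within every number. No marker was at 0 in all 8 libraries. The part of these differences in the results was not tested, and in bulk RNA fewer cells of a type and less RNA per cell cannot be told apart.

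Several mitoribosomal genes overlap another gene, and whether counting used the strand is not given in the sources used here, so reads could be divided wrongly between them. Mrps6 shares its first part, on the same strand, with Slc5a3, an inositol transporter gene that fell from 44.5 ± 12.9 to 5.48 ± 2.10 CPM (log2 -3.02 ± 0.30; edgeR adjusted p = 0.000128). Mrpl19 overlaps Gcfc2 on the other strand, which rose alongside it, from 7.77 ± 1.99 to 15.5 ± 1.81 CPM (0.99 ± 0.19; edgeR adjusted p = 0.0024). Mrpl44 overlaps Wdfy1 (0.64 ± 0.11; edgeR adjusted p = 0.00112) and Mrpl49 overlaps Syvn1 (-0.36 ± 0.09; 0.00847), each called in the same direction as the mitoribosomal gene. Mrpl24 fell while its overlapping neighbour Rrnad1 rose (0.63 ± 0.14; edgeR adjusted p = 0.00599). How far shared reads enter these 5 genes was not tested.

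Genes for mitoribosomal proteins often share a start region with a gene on the opposite strand. Of the 78, 18 (23.1%) had a partner beginning within 1000 bases in the opposite direction without overlapping it, against 1213 of 11413 tested genes found in the gene models (10.6%). A further 15 began within that distance of an opposite-strand gene whose first part overlaps theirs, which gave 33 of 78 (42.3%) of either kind, against 1915 of the 11413 (16.8%). Among the 15, Mrpl44 and Wdfy1, which overlap by 125 bases, were both called higher, and 0 pairs were called in opposite directions. The other called genes of the 15, Mrps30, Mrpl47, Mrpl9, Mrpl36 and Mrpl43, had partners that were not tested or not called. The 0 therefore says little about direction. Mrpl46 and Mrps11, which are each other's partner, are both counted in the 15. Of the 18 partners without overlap 6 were called, beside 48.6% of all tested genes. Of the 18 mitoribosomal genes themselves, 3 rose and 1 fell (22.2% called), so few pairs could have both genes called. Both genes were called in 1 pair, in opposite directions. That pair was Mrps18b, which rose, and Ppp1r10, a phosphatase regulator that begins 45 bases away and fell from 274 ± 49.8 to 109 ± 47.6 CPM (-1.33 ± 0.27; edgeR adjusted p = 0.00376). Mrpl49, which fell, begins 59 bases from Fau, which encodes a cytosolic ribosomal protein and was at 341 ± 16.9 and 326 ± 30.3 CPM (-0.07 ± 0.09; edgeR adjusted p = 0.577). Mrps12 and the mitochondrial seryl-tRNA synthetase gene Sars2, which begin 172 bases apart, both had a log2 fold change of 0.18 and neither passed.

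Other parts of the machinery that builds and runs the mitoribosome were measured as lists chosen for their role. Of 5 further mitoribosomal proteins that carry other names, Ptcd3, a small-subunit protein that binds RNA, rose from 24.8 ± 3.27 to 48.6 ± 1.95 CPM (log2 0.97 ± 0.11; edgeR adjusted p = 0.00021). Dap3, Aurkaip1, Chchd1 and Gadd45gip1 did not pass. Among genes for mitoribosome assembly and the maturation of its ribosomal RNA, 14 of 27 tested rose and 1 fell (55.6% called, beside 48.6% of all tested genes; median 0.37). Trub2, a pseudouridine synthase, rose from 8.99 ± 1.27 to 31.4 ± 2.25 CPM (1.80 ± 0.13; edgeR adjusted p = 4.43e-05). Dhx30, an RNA helicase, rose from 21.5 ± 4.99 to 48.9 ± 2.14 CPM (1.19 ± 0.16; edgeR adjusted p = 0.00045), and Gtpbp10, a GTPase of large-subunit assembly, from 11.0 ± 1.20 to 19.5 ± 1.33 CPM (0.83 ± 0.12; 0.000612). The exception was Ptcd1, an RNA-binding protein needed for the large ribosomal RNA, which fell from 45.5 ± 4.70 to 25.8 ± 2.89 CPM (-0.82 ± 0.12; edgeR adjusted p = 0.000551). All 4 of these calls held with library totals.

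Of 18 translation factors and related genes, 3 rose and 2 fell (27.8% called, beside 48.6% of all tested genes), with a median of 0.19. With library totals 11 rose and 0 fell, where 35.4% of all tested genes were called higher and 13.1% lower. Mtrf1, a release factor (0.97 ± 0.22; edgeR adjusted p = 0.00519), Taco1, an activator of the translation of a cytochrome oxidase subunit (0.82 ± 0.15; 0.00168), and the initiation factor Mtif2 (0.53 ± 0.14; 0.0103) rose. Lrpprc, which stabilises mitochondrial messenger RNAs, fell (-0.27 ± 0.09; edgeR adjusted p = 0.0323), but not with library totals (-0.05; 0.658). Genes for mitochondrial transcription were split, with 2 of 7 higher and 3 lower (71.4% called, beside 48.6% of all tested genes). The elongation factor Tefm rose from 2.94 ± 0.847 to 9.80 ± 1.04 CPM (1.73 ± 0.22; edgeR adjusted p = 0.000304), whereas the polymerase Polrmt (-0.60 ± 0.11; 0.0018) and its initiation factor Tfb2m (-0.69 ± 0.10; 0.000718) fell, also with totals. Of 17 mitochondrial tRNA synthetases, which charge the tRNAs the ribosome uses, 6 rose and 2 fell (47.1% called, beside 48.6% of all tested genes; median 0.23), or 10 and 0 with library totals. The rises included Pars2 (1.98 ± 0.31; edgeR adjusted p = 0.000847) and Rars2 (1.60 ± 0.23; 0.000508).

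Cytosolic ribosomal proteins, the equivalent set outside the mitochondrion, were nearly all close to 0. Of 79 tested, 2 rose (Rpl7l1, a relative of a ribosomal protein, and Rpl3) and 0 fell (2.53% called, beside 48.6% of all tested genes). The median was -0.03 and the range -0.20 to 0.67. With library totals 16 of the 79 rose, where 35.4% of all tested genes were called higher and 13.1% lower. The SD of the log2 fold changes, which is not tied to the scaling, was 0.35 over the 78 mitoribosomal and 0.11 over the 79 cytosolic genes. Nuclear genes of the respiratory chain and ATP synthase, whose partner subunits the mitoribosome makes, gave 0 rises and 21 falls with TMM scaling. Of the 77 tested, 27.3% were called (median -0.22), beside 24.9% higher and 23.7% lower among all tested genes. With library totals these 77 genes gave 2 rises and 0 falls (median 0.01). The median of the mitoribosomal genes lay above that of the respiratory chain genes in both, at 0.16 against -0.22 and 0.38 against 0.01. These are descriptions of the lists, without a test of the difference between them.

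**Figure D4:**
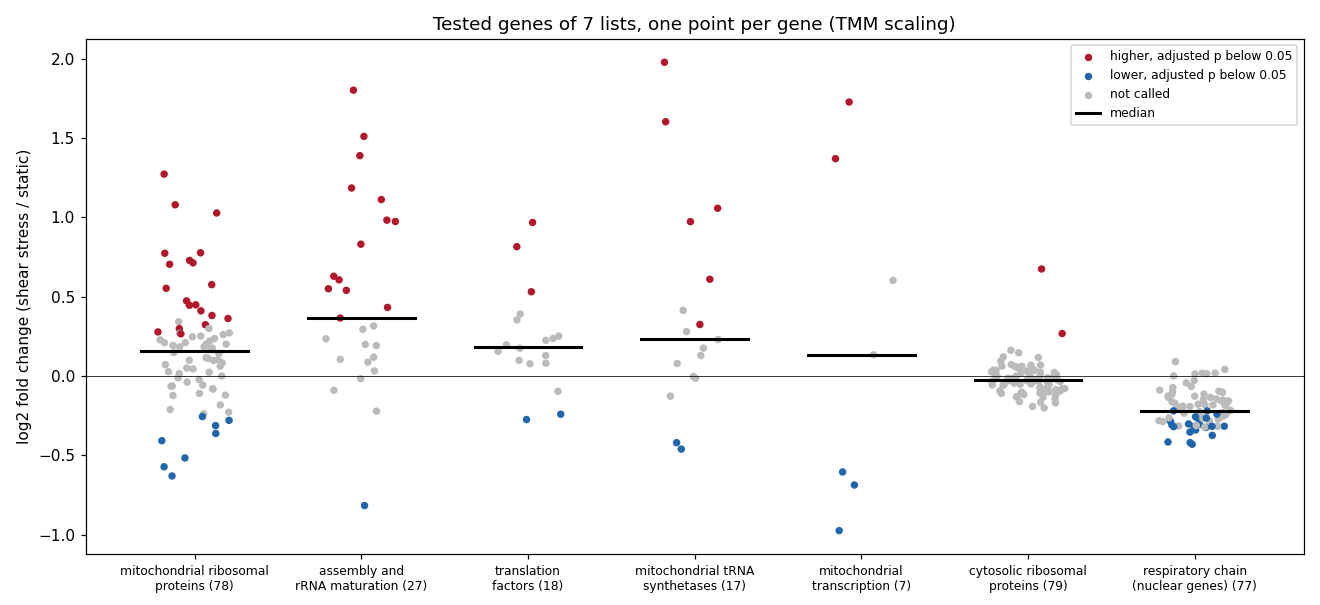
Log2 fold change (shear stress over static, TMM scaling, y axis) of each tested gene in 7 lists (x axis, number of genes in brackets); red and blue points passed the test at an adjusted p below 0.05, and black bars are medians. The mitochondrial ribosomal proteins spread from -0.63 to 1.27 around a median of 0.16, the cytosolic ones from -0.20 to 0.67 around -0.03.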

How the data were processed

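The members and gene lists were chosen with earlier results of these data known. Total RNA was extracted with TRIzol and sequenced on DNBSEQ, per the labels. The submitters' processing notes name HISAT, Bowtie2, RSEM and GRCm38 (mm10); for the versions, the annotation and the strandedness, the entry is: not given in the sources used here. Each deposited file gives expected counts that the authors estimated with RSEM, and, per the file headers, the authors' TPM and FPKM values. TPM was used in no test, only in checking the files.

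Depth was 15067056 to 17935566 estimated counts in static and 16225843 to 16732203 in shear stress libraries, where 3 counts equal 0.157 to 0.227 CPM. Counts were rounded, filtered with filterByExpr (11747 genes kept), TMM-scaled and tested with edgeR 4.0.16 (quasi-likelihood, robust; R 4.3.3; group as the only term). P-values were adjusted over all tested genes by the Benjamini-Hochberg method (threshold 0.05), and SE is the log2 fold change over the square root of F. Alternatives were other scalings and filters, DESeq2 1.42.0, limma 3.58.1 on FPKM, a replicate block and left-out libraries. Scripts were tested on simulated data. No pair of libraries agreed within counting noise.

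Values are given for the 8 largest rises and 8 falls, the 5 highest and 3 lowest genes by FPKM, genes with a landmark role, and up to 4 called genes of each other list by smallest p. Coordinates and promoter windows are from RefSeq (GRCm38.p6), and overlaps from GENCODE models of the same build. Same-numbered libraries correlated at 0.679, 0.642, 0.56 and 0.467 after removal of group means (8446 genes), and what a number stands for is not in the labels.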

Additional observations from a re-analysis of the deposited data

Results flagged for a closer look

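Of 68 groups of 4 libraries examined (34 genes in 2 conditions), 2 held a library far from the other 3, and chance alone gives about 1 in 20. For Mrpl12, of the stalk of the large subunit, static replicate 3 stood at 96.9 CPM, above the other static libraries at 64.3 to 66.8 CPM. For Mrpl58, the peptidyl-tRNA hydrolase, shear stress replicate 3 stood at 33.4 CPM, below the other shear stress libraries at 38.1 to 39.1 CPM. Neither gene was called in the comparison of the groups.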

How the results depend on the processing

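Counts of rises and falls among the 78 genes, with their median log2 fold change, were 43 and 1 (0.38) with library totals, 33 and 3 (0.29) with upper quartile factors, and 44 and 2 (0.34), 43 and 2 (0.35) and 43 and 1 (0.34) with limma on FPKM at pseudocount 1, at pseudocount 0.1 and at pseudocount 1 without a filter. In the 3 FPKM fits 73.5%, 73.5% and 70.2% of the calls over all genes were also higher, with all-gene medians of 0.17, 0.19 and 0.03. RLE factors, DESeq2, no filter and a mean of at least 1 CPM gave 16 to 22 rises and 6 to 8 falls. In those fits 48.4% to 51.3% of the calls over all genes were higher. With the replicate block, which pairs libraries by number, 26 rose and 8 fell (0.16), and no call was lost. Leaving out 1 library gave 16 to 20 rises, 4 to 7 falls and medians from 0.13 to 0.19, and the fewest falls came without shear stress replicate 4. Of the calls over all genes, 50.3% to 53.6% were higher in the fits without 1 library. Leaving out both libraries of a number, chosen after seeing the data, gave 14, 17, 19 and 15 rises and 5, 2, 5 and 3 falls for numbers 1 to 4. There 51.1% to 54.0% of the calls over all genes were higher. Between TMM and library totals 13 of the 78 genes changed sign, 0 of them called with TMM. Of the 34 genes that the naming rule selects, 7 changed sign in some setting, and 0 of these were called. With totals, upper quartile factors and the 3 FPKM fits in the order above, Mrps25 was at 0.17, 0.080, 0.13, 0.16 and 0.13, Mrpl45 at 0.10, 0.016, 0.12, 0.12 and 0.12, Mrps7 at 0.17, 0.075, 0.15, 0.16 and 0.15, Mrps18a at 0.10, 0.016, 0.083, 0.084 and 0.083, Mrps18c at 0.21, 0.12, 0.18, 0.18 and 0.18, and Mrps36 at 0.16, 0.076, 0.13, 0.14 and 0.13. With 1 library left out, Mrpl33 ranged from -0.092 to 0.11, Mrps25 from -0.12 to 0.018, Mrps18c from -0.051 to 0.027 and Mrps36 from -0.16 to 0.0047. Apart from the scaling itself and the smaller number of libraries, the cause was not tested. The depth leaves all 78 genes well above 3 counts, and 4 libraries per group limit the precision.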
